A study of Drosophila melanogaster with 30 samples.

Results

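The core circadian clock of Drosophila melanogaster was represented by 8 genes, tim, per, vri, Pdp1, cwo, cry, Clk and cyc, taken by name from the 17559 genes of a nuclear RNA count table. All 8 were found, and all 8 were among the 11457 genes that passed the filter on low counts.

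The clock is a transcriptional feedback loop. The proteins of Clk and cyc bind E-box sequences as a dimer and switch on per, tim, vri, Pdp1 and cwo. PER and TIM then enter the nucleus and inhibit that dimer, VRI represses and PDP1 activates Clk, and CWO competes at E-boxes. CRY is a blue-light receptor that triggers the loss of TIM. In fly heads kept in light and dark, RNA of tim, per, vri and Pdp1 is known to peak around dusk and early night, RNA of Clk and cry around dawn, and RNA of cyc stays roughly level. Clocks run in dedicated clock neurons and also in photoreceptors, glia and fat body.

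Nuclei carrying a FLAG tag were precipitated from homogenized fly heads, and polyadenylated RNA was sequenced in 30 libraries, 3 for each of 10 groups. The activated flies had a protocol of 5 min of red-light activation and then 10 min of rest. CsChrimson is a light-gated channel, so in the flies without it the word activated names the light protocol alone. Naive flies were not activated. The aim given by the series title is to find genes controlled by Kdm4B, a histone demethylase. The 5 genotypes, each in an activated and a naive group, were MB477 with RNA interference (RNAi) against Kdm4B, MB477, MB131 with Kdm4B RNAi, MB131, and flies without CsChrimson, whose line the labels do not name. The strain is given as CS10 for all libraries but 1, a naive library of MB477 with RNAi that has no strain label. All flies were raised in cycles of 12 h light and 12 h dark at 25 °C and 60% humidity. The labels do not state the hour of collection, the sex or the age, nor which cells MB131 and MB477 drive. A difference in collection hour between groups therefore cannot be told apart from treatment or genotype. The labels also do not say that the 3 libraries of a group came from separate flies, so p-values speak of the spread among libraries alone, and that spread may be technical.

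Libraries held 8291599 to 14344348 counts, with a median of 11458759. The 3 naive MB477 libraries stood apart on the first principal component, at 64.2 to 68.0 against -25.5 to 22.9 for the other 27. Kdm4B, the RNAi target, had 2 to 26 counts per library, and its log2 fold change in the 4 comparisons of RNAi with no RNAi ran from -1.05 ± 0.67 to 0.24 ± 0.61 (SE; edgeR adjusted p of 0.285 to 0.912), so a knockdown was not detectable at this depth. The labelled tissue was the mushroom body, but ninaE, the main photoreceptor rhodopsin, had a mean of 4676 to 14510 CPM (counts scaled to a common library total) over the 10 groups. RNA from outside the mushroom body is thus included, and the tissue from which the clock gene reads came was not measured. In such bulk samples, fewer cells of a type and less RNA per cell cannot be told apart.

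The genes lie on 4 chromosome arms in dm6 coordinates. tim (FBgn0014396) lies at 2L from 3493986 to 3508119 and vri (FBgn0016076) at 2L from 5288944 to 5311223. Pdp1 (FBgn0016694), Clk (FBgn0023076) and cyc (FBgn0023094) lie on 3L, at 7811458 to 7867369, 7763233 to 7775603 and 19813770 to 19815938. cwo (FBgn0259938) and cry (FBgn0025680) lie on 3R, at 10388258 to 10400752 and 19212154 to 19215442, and per (FBgn0003068) on X at 2685580 to 2692780. Strand use in counting is not given in the sources used here. Exons of tim overlap those of the antisense lncRNA:CR46495 by 545 bases and of snoRNA:Or-CD16 by 151 bases, exons of cry overlap those of lncRNA:CR46393 on the same strand by 329 bases and of vib by 9 bases, and exons of per overlap those of dyw on the other strand by 49 bases. Reads from these stretches cannot be assigned for certain. The other 5 genes had no exonic overlap in the annotation.

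All 8 genes were well covered. The lowest count of any of them in any library was 438, for cyc, and the highest was 37507, for Pdp1. Per kilobase of exon, tim averaged 101.0 to 301.3 CPM per kb over the 10 groups, Pdp1 122.8 to 238.8, cry 71.76 to 123.6, Clk 44.14 to 73.32, cwo 36.64 to 59.32, cyc 31.28 to 39.80, per 13.40 to 25.72 and vri 12.83 to 79.98. tim had the highest upper end and per and vri the lowest lower ends, and vri had the widest span as a ratio of its highest to its lowest group mean.

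**Figure D1:**
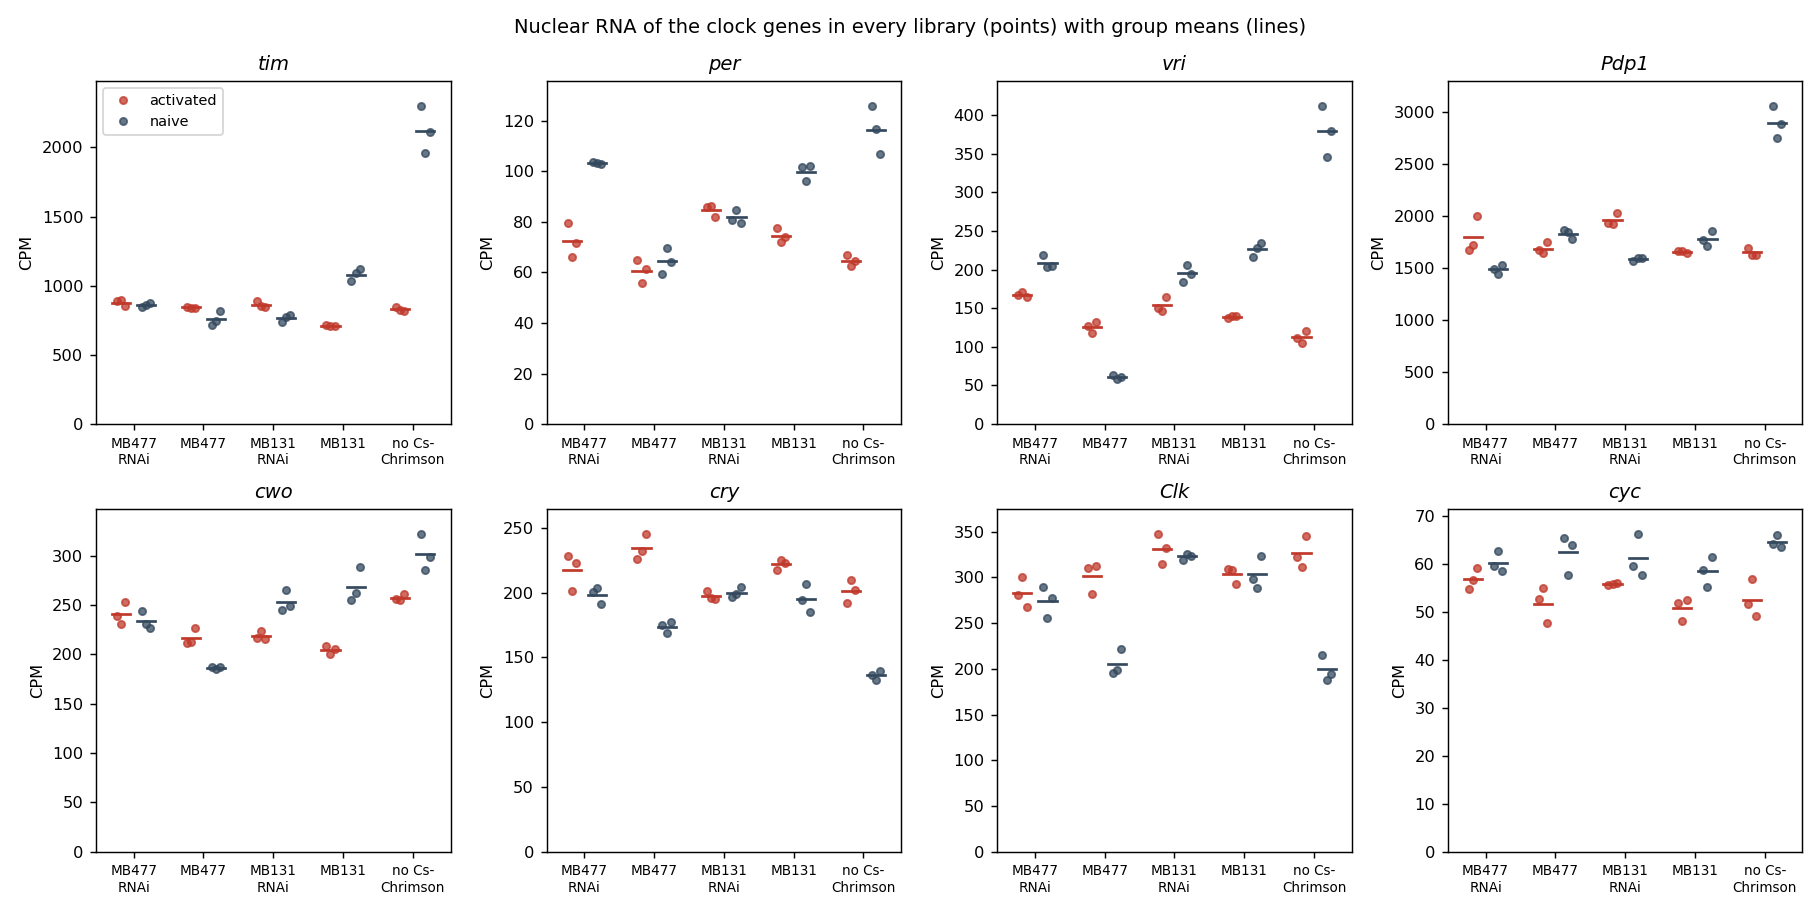
Level of each of the 8 clock genes in each library, in CPM on the y axis, by genotype on the x axis, with activated libraries left in red, naive libraries right in dark, and lines at group means (n = 3 libraries). Naive libraries without CsChrimson held the highest tim, vri and Pdp1 levels, and naive MB477 libraries the lowest vri levels.

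Activated libraries were compared with naive ones in each genotype to ask whether the light protocol was accompanied by altered clock gene RNA. In flies without CsChrimson all 8 clock genes passed the test, 2 higher and 6 lower in activated libraries, against 21% of all genes tested. The fitted log2 fold changes are given with standard errors (SE) from edgeR's quasi-likelihood test, and adjusted p-values are by Benjamini-Hochberg over all 11457 genes with a threshold of 0.05. In the other genotypes, 4 clock genes were called in MB477 with RNAi, 2 in each direction, against 28.7% of all genes. In MB477 it was 7, with 5 higher and 2 lower, against 59.5%. In MB131 with RNAi it was 4, with 2 in each direction, against 26.8%, and in MB131 it was 6, with 1 higher and 5 lower, against 24.5%.

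tim, which encodes the light-sensitive partner of PER, had 848, 828 and 817 CPM in activated libraries without CsChrimson and 2296, 1959 and 2108 CPM in naive ones. The groups did not overlap, and the log2 fold change was -1.35 ± 0.04 (SE, 0.392-fold; edgeR adjusted p = 3.23e-50). By absolute change tim ranked at 282 among the 11457 genes tested in this comparison, and vri at 151. In MB131, tim had 717, 709 and 707 CPM in activated libraries and 1032, 1089 and 1121 CPM in naive ones, again without overlap (log2 fold change -0.60 ± 0.04, edgeR adjusted p = 9.24e-24). Small changes of the other sign were called in MB131 with RNAi, with means of 862.5 ± 25.0 CPM activated and 765.6 ± 28.3 CPM naive (SD, n = 3 libraries; 0.17 ± 0.04, edgeR adjusted p = 0.000525), and in MB477, with 844.0 ± 3.43 and 759.1 ± 51.1 CPM (0.15 ± 0.04, edgeR adjusted p = 0.000877). In MB477 with RNAi the means were 877.9 ± 22.3 CPM activated and 859.0 ± 15.6 CPM naive, the libraries overlapped, and the log2 difference lay between -0.05 and 0.11 (95% interval; edgeR adjusted p = 0.635).

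per, which encodes the repressor that TIM stabilizes, had 67.0, 62.5 and 64.5 CPM in activated libraries without CsChrimson, against 126, 117 and 107 CPM in naive ones. The lowest naive library lay above the highest activated one, and the log2 fold change was -0.85 ± 0.07 (0.555-fold; edgeR adjusted p = 2.93e-19). per also fell in MB477 with RNAi, to 79.5, 66.2 and 71.6 CPM in activated libraries against 104, 103 and 103 CPM in naive ones (-0.51 ± 0.07, edgeR adjusted p = 1.46e-09). In MB131 it was 77.6, 72.1 and 74.1 CPM in activated libraries and 102, 96.2 and 102 CPM in naive ones (-0.42 ± 0.07, edgeR adjusted p = 3.35e-07). In MB477 and in MB131 with RNAi the libraries overlapped and no change was called, with log2 fold changes of -0.09 ± 0.07 and 0.05 ± 0.07 (edgeR adjusted p of 0.304 and 0.649).

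vri, the repressor of Clk, was the most changeable of the 8 genes. It had 111, 106 and 120 CPM in activated libraries without CsChrimson and 411, 346 and 380 CPM in naive ones, a log2 fold change of -1.76 ± 0.06 (0.296-fold; edgeR adjusted p = 8.79e-49). In MB477 the direction was opposite, with 127, 118 and 133 CPM activated and 63.7, 58.3 and 60.4 CPM naive (1.05 ± 0.06, 2.07-fold; edgeR adjusted p = 9.49e-29). The activated and naive libraries were apart in every genotype for this gene. The vri mean was 167.4 ± 3.39 CPM activated and 208.8 ± 8.83 CPM naive in MB477 with RNAi (-0.32 ± 0.06, edgeR adjusted p = 1.56e-06), and 153.8 ± 9.54 and 195.0 ± 11.4 CPM in MB131 with RNAi (-0.34 ± 0.06, edgeR adjusted p = 2.43e-07). In MB131 it was 138.9 ± 1.48 CPM activated and 226.3 ± 9.24 CPM naive (SD, n = 3; -0.70 ± 0.06, edgeR adjusted p = 4.7e-20). vri was thus lower in activated libraries of 4 genotypes and higher in those of MB477.

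Pdp1, the activator of Clk, had 1696, 1630 and 1628 CPM in activated libraries without CsChrimson and 3056, 2750 and 2890 CPM in naive ones (-0.81 ± 0.04, 0.57-fold; edgeR adjusted p = 1.11e-31). Both RNAi genotypes went the other way. Pdp1 had 1670, 1725 and 2000 CPM in activated libraries of MB477 with RNAi against 1490, 1447 and 1534 CPM in naive ones (0.27 ± 0.04, edgeR adjusted p = 3.91e-08), and 1935, 1921 and 2030 against 1573, 1602 and 1596 CPM in MB131 with RNAi (0.30 ± 0.04, edgeR adjusted p = 1.19e-09). In MB477 it had 1688 ± 52.5 CPM activated and 1832 ± 48.1 CPM naive (SD, n = 3; -0.12 ± 0.04, edgeR adjusted p = 0.00929). That call was lost without activated replicate 2 (-0.10, edgeR adjusted p = 0.0607) or naive replicate 1 (-0.10, edgeR adjusted p = 0.0541). In MB131 the change was -0.10 ± 0.04 and missed the threshold (edgeR adjusted p = 0.0594), although without naive replicate 2 it passed (-0.13, edgeR adjusted p = 0.0287). Isoforms of Pdp1 were not separated by these counts.

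cwo, an E-box repressor, averaged 257.4 ± 3.27 CPM in activated libraries without CsChrimson and 302.1 ± 18.5 CPM in naive ones (SD, n = 3; -0.23 ± 0.05, edgeR adjusted p = 8.65e-05). It was also lower in activated MB131 libraries, at 204.9 ± 3.83 CPM against 268.6 ± 17.9 CPM (-0.39 ± 0.05, edgeR adjusted p = 1.24e-10), and in activated MB131 libraries with RNAi, at 218.7 ± 4.43 against 253.0 ± 10.5 CPM (-0.21 ± 0.05, edgeR adjusted p = 0.000297). In MB477 it was higher, at 216.7 ± 8.3 CPM activated and 186.6 ± 0.932 CPM naive (0.22 ± 0.05, edgeR adjusted p = 1e-04). In MB477 with RNAi it was 240.8 ± 11.3 CPM activated and 234.0 ± 8.94 CPM naive, with no change called (0.04 ± 0.05, edgeR adjusted p = 0.581). The fitted change of cwo was smaller in size than that of vri in each of the 5 genotypes.

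Clk, which encodes the activator and is itself the gene that VRI and PDP1 regulate, had 322, 311 and 345 CPM in activated libraries without CsChrimson and 215, 188 and 195 CPM in naive ones (0.71 ± 0.05, 1.64-fold; edgeR adjusted p = 2.12e-20). In MB477 it had 310, 282 and 312 CPM activated and 195, 198 and 222 CPM naive (0.56 ± 0.05, 1.47-fold; edgeR adjusted p = 5.06e-16). Neither pair of groups overlapped. In the other genotypes no change was called and the libraries overlapped, with log2 fold changes of 0.04 ± 0.05 in MB477 with RNAi, 0.04 ± 0.05 in MB131 with RNAi and 0.00 ± 0.05 in MB131, and 95% intervals within -0.10 and 0.15.

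cry, the light receptor, was higher in activated than in naive libraries of 4 genotypes. It had 192, 210 and 202 CPM activated and 136, 132 and 140 CPM naive without CsChrimson (0.56 ± 0.05, 1.48-fold; edgeR adjusted p = 1.72e-16). The levels in MB477 were 226, 232 and 245 CPM activated and 175, 169 and 177 CPM naive (0.43 ± 0.05, 1.35-fold; edgeR adjusted p = 1.31e-12). In MB131 it was 221.8 ± 4.27 and 195.1 ± 11.1 CPM (SD, n = 3; 0.18 ± 0.05, edgeR adjusted p = 0.00282). In MB477 with RNAi the call (0.13 ± 0.05, edgeR adjusted p = 0.0407) rested on overlapping libraries and was lost without activated replicate 1 (0.09, edgeR adjusted p = 0.242), activated replicate 3 (0.11, edgeR adjusted p = 0.147), naive replicate 1 (0.14, edgeR adjusted p = 0.0673) or naive replicate 3 (0.10, edgeR adjusted p = 0.189). It was also lost with library totals alone (0.04, edgeR adjusted p = 0.585), without the filter (0.11, 0.131) and in a fit without naive MB477 (0.12, 0.0543). In MB131 with RNAi the log2 fold change was -0.02 ± 0.05 (edgeR adjusted p = 0.841).

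cyc, the constitutive partner of Clk, spanned 50.83 to 64.67 CPM in its group means, the narrowest span of the 8 genes as a ratio. It had 52.65 ± 3.94 CPM in activated libraries without CsChrimson and 64.67 ± 1.27 CPM in naive ones (SD, n = 3; -0.30 ± 0.08, edgeR adjusted p = 0.00222), and 51.81 ± 3.77 against 62.47 ± 4.14 CPM in MB477 (-0.27 ± 0.08, edgeR adjusted p = 0.00187). In MB131 it had 50.83 ± 2.4 CPM activated and 58.58 ± 3.13 CPM naive (-0.20 ± 0.08, edgeR adjusted p = 0.0444). The MB131 call was lost without activated replicate 1 (edgeR adjusted p = 0.0753), activated replicate 2 (0.21), activated replicate 3 (0.065), naive replicate 1 (0.0951) or naive replicate 3 (0.182), with log2 fold changes of -0.22 to -0.16. It was also lost in a fit of its groups alone (-0.21, edgeR adjusted p = 0.0554) and without the filter (-0.20, 0.0797). No change was called in MB477 with RNAi (-0.08 ± 0.08) or in MB131 with RNAi (-0.13 ± 0.08). The fitted change was negative in all 5 genotypes.

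**Figure D2:**
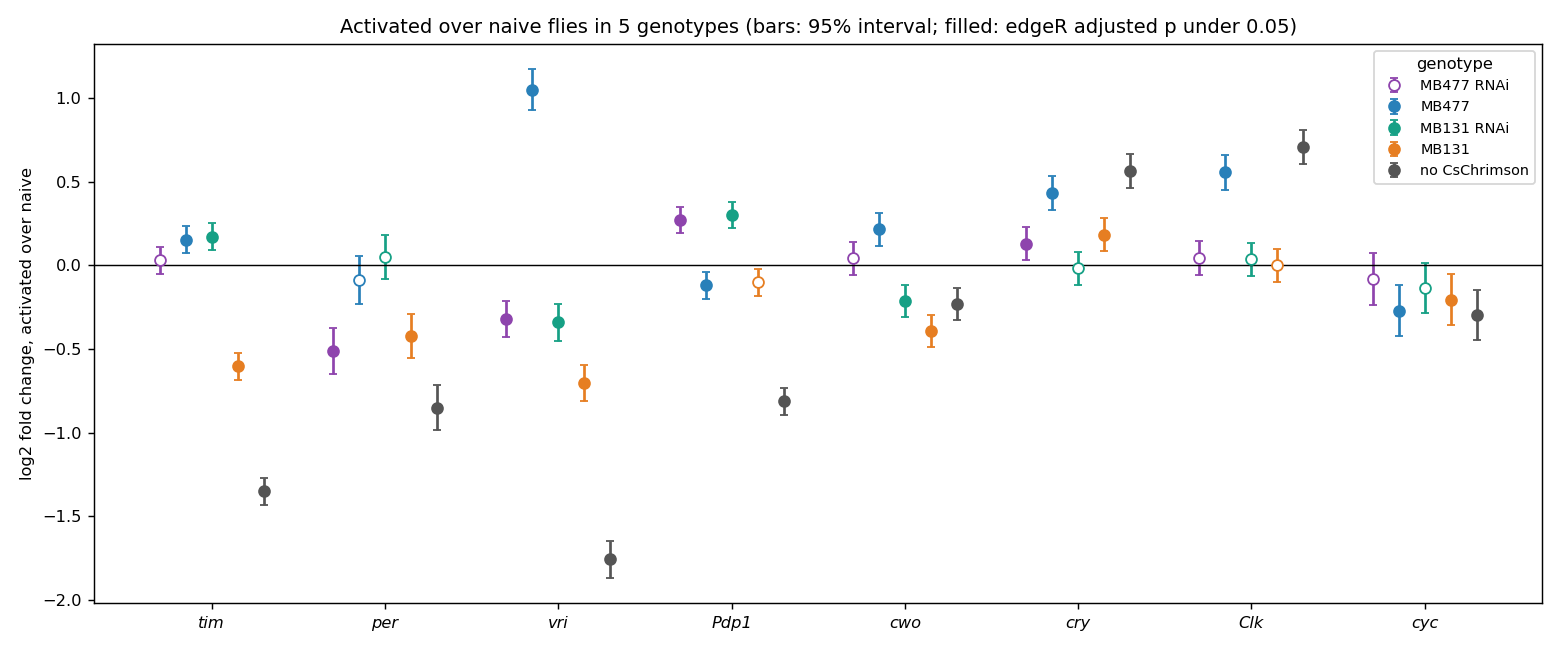
Fitted log2 fold change of activated over naive libraries on the y axis, for each clock gene on the x axis and each genotype in a colour, with bars for the 95% interval and filled points where the edgeR adjusted p was under 0.05. tim, per, vri and Pdp1 lie farthest below 0 without CsChrimson, at -1.35, -0.85, -1.76 and -0.81, and vri lies above 0 only in MB477, at 1.05.

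The differences between these responses were tested as interactions. Between MB477 and flies without CsChrimson, 5 clock genes differed, all with a higher change in MB477, against 46.7% of all genes. Of all genes, 26.6% differed upwards and 20.2% downwards. The difference was 2.81 ± 0.08 for vri and 1.51 ± 0.06 for tim on the log2 scale (edgeR adjusted p of 2.38e-50 and 5.71e-41), 0.76 ± 0.10 for per, 0.69 ± 0.06 for Pdp1 and 0.45 ± 0.07 for cwo. Between MB131 and flies without CsChrimson, 6 differed, 4 upwards and 2 downwards, against 6.23%. Here vri differed by 1.05 ± 0.08, tim by 0.75 ± 0.06 and Pdp1 by 0.71 ± 0.06 (edgeR adjusted p of 1.57e-20, 1.78e-19 and 4.77e-18), per by 0.43 ± 0.10, cry by -0.38 ± 0.07 and Clk by -0.71 ± 0.07 (edgeR adjusted p = 1.31e-12). The changes of these 6 genes were smaller in MB131 than in the flies without CsChrimson, and those of the others, cwo and cyc, were not called different.

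With Kdm4B RNAi the activation response of 6 clock genes differed from that without RNAi in MB477, 1 upwards and 5 downwards, against 51.6% of all genes. vri differed by -1.37 ± 0.08 (edgeR adjusted p = 1.93e-27), Clk by -0.51 ± 0.07, per by -0.43 ± 0.10, cry by -0.30 ± 0.07 and Pdp1 by 0.39 ± 0.06. The sixth, cwo, differed by -0.17 ± 0.07 (edgeR adjusted p = 0.0306) and was lost without MB477 activated replicate 3 (-0.14, edgeR adjusted p = 0.106), MB477 naive replicate 2 (-0.17, edgeR adjusted p = 0.0518), RNAi activated replicate 2 (-0.17, edgeR adjusted p = 0.0578) or RNAi naive replicate 1 (-0.14, edgeR adjusted p = 0.103). In MB131, 6.06% of all genes differed, 3.26% upwards and 2.79% downwards. Of the clock genes, 4 differed, all upwards. These were tim by 0.78 ± 0.06 (edgeR adjusted p = 9.72e-20), per by 0.47 ± 0.10, Pdp1 by 0.40 ± 0.06 and vri by 0.36 ± 0.08. Each interaction shares its naive and activated libraries with the comparisons it is made from.

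Over all 5 genotypes, group means spread more widely among naive than among activated groups for each clock gene except cyc. The highest of the 5 naive group means of vri was 6.23 times the lowest, whereas the highest of the 5 activated means was 1.49 times the lowest. For tim the ratios were 1.23 over activated groups and 2.79 over naive ones, for per 1.40 and 1.81, for Pdp1 1.19 and 1.94, for cwo 1.26 and 1.62, for cry 1.19 and 1.47, and for Clk 1.17 and 1.62. cyc was the exception, with 1.12 over activated and 1.10 over naive groups. Over the 7677 genes with a mean above 10 CPM, the median ratio was 1.285 over activated and 1.495 over naive groups, so a wider spread among naive groups was also seen across genes. Without naive MB477 the naive ratio of vri was 1.94 and that of tim was 2.77, and without naive MB477 and the naive flies lacking CsChrimson the ratios were 1.16 and 1.41. Without both, the naive ratio was 1.26 for per, 1.19 for Pdp1, 1.15 for cwo, 1.02 for cry, 1.18 for Clk and 1.05 for cyc. For vri, per, cwo, cry and cyc this was below the activated ratio, for Pdp1 and Clk like it, and for tim above it. A ratio over 3 groups tends to be smaller than over 5. These are values with no test.

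**Figure D3:**
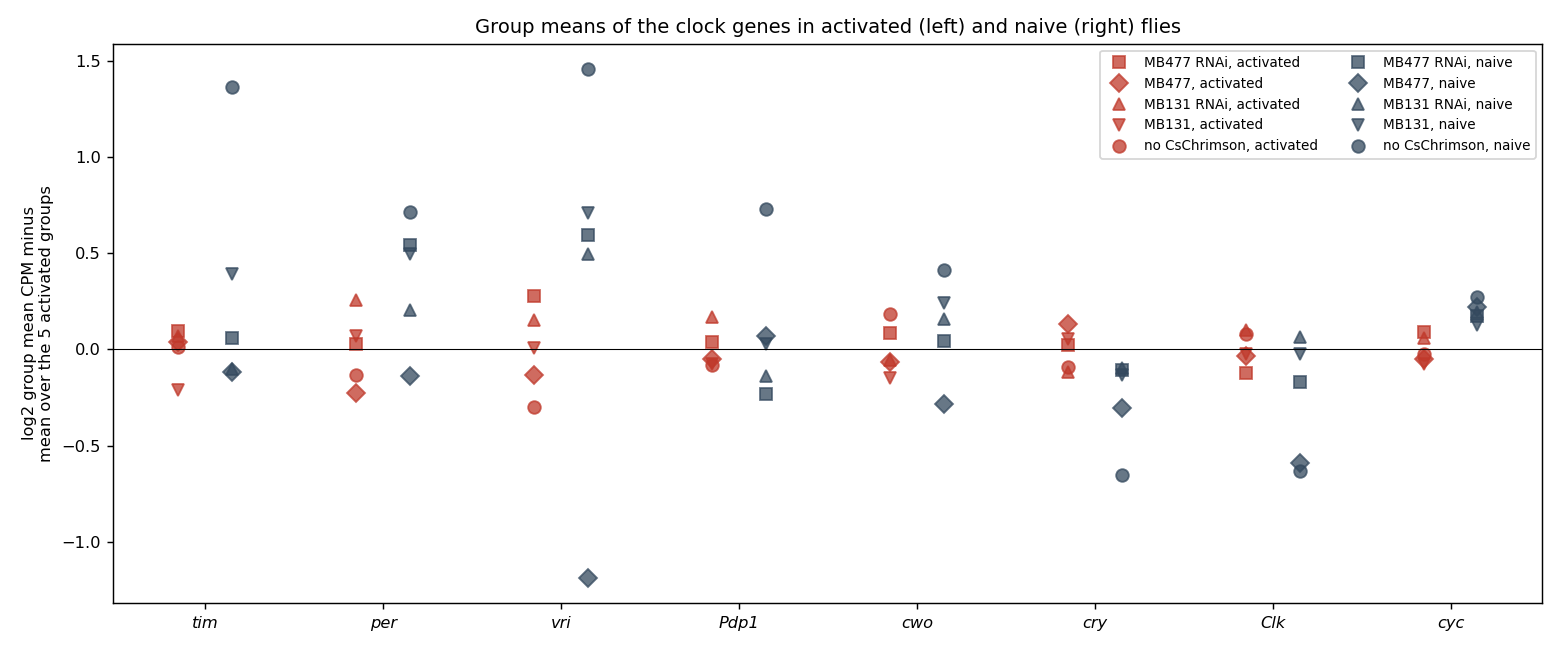
Log2 group mean of each clock gene minus its mean over the 5 activated groups, with activated groups left and naive groups right, 1 point per genotype. The highest activated mean is 1.12 times the lowest for cyc and up to 1.49 times for vri. The naive points of vri spread most widely, from MB477 at the bottom to the flies without CsChrimson at the top.

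For Kdm4B RNAi in naive MB477 flies, 7 of 8 clock genes were called, 6 higher and 1 lower, against 61.1% of all genes. vri had 219, 203 and 205 CPM in RNAi libraries and 63.7, 58.3 and 60.4 CPM in those without RNAi, a log2 fold change of 1.78 ± 0.06 (3.43-fold; edgeR adjusted p = 2.61e-46). per had 104, 103 and 103 CPM with RNAi and 59.3, 69.8 and 64.1 CPM without (0.68 ± 0.07, edgeR adjusted p = 5.46e-15). Clk was higher by 0.42 ± 0.05, cwo by 0.33 ± 0.05, cry by 0.19 ± 0.05 and tim by 0.18 ± 0.04, and Pdp1 was lower, by -0.30 ± 0.04 (edgeR adjusted p = 5.6e-10). This comparison uses the naive MB477 libraries that stood apart, and so do all others with naive MB477.

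In activated MB477 flies, 3 clock genes were called with RNAi, all higher, against 21.9% of all genes, 11.9% higher and 10% lower. vri had 167, 171 and 164 CPM with RNAi and 127, 118 and 133 CPM without (0.41 ± 0.06, edgeR adjusted p = 7.22e-09). per differed by 0.25 ± 0.07 (edgeR adjusted p = 0.00513), a call lost without MB477 activated replicate 2 (0.20, edgeR adjusted p = 0.0762) or RNAi activated replicate 1 (0.18, edgeR adjusted p = 0.115). cwo differed by 0.15 ± 0.05 (edgeR adjusted p = 0.0158), a call lost without MB477 activated replicate 1 (0.13, edgeR adjusted p = 0.0801) or replicate 2 (0.14, edgeR adjusted p = 0.0757) or RNAi activated replicate 3 (0.11, edgeR adjusted p = 0.146). Without MB477 activated replicate 2, 1 of 8 clock genes was called.

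In naive MB131 flies, 11% of all genes were called with RNAi, 6.12% lower and 4.92% higher. Of the clock genes, 4 were lower and none higher. tim had 734, 773 and 789 CPM with RNAi and 1032, 1089 and 1121 CPM without (-0.50 ± 0.04, 0.708-fold; edgeR adjusted p = 6.31e-18). per was lower by -0.29 ± 0.07 (edgeR adjusted p = 0.00125) and Pdp1 by -0.16 ± 0.04 (edgeR adjusted p = 0.00288). vri was lower by -0.22 ± 0.05 (edgeR adjusted p = 0.00308), a call lost without RNAi naive replicate 1 (-0.17, edgeR adjusted p = 0.0521). In activated MB131 flies 3 were called, 2 higher and 1 lower, against 11.5%. tim was at 862.5 ± 25.0 CPM with RNAi and 711.1 ± 5.03 CPM without (SD, n = 3; 0.28 ± 0.04, edgeR adjusted p = 7.71e-08), and Pdp1 at 1962 ± 59.4 and 1659 ± 14.3 CPM (0.24 ± 0.04, edgeR adjusted p = 2.23e-06). cry was lower by -0.17 ± 0.05 (edgeR adjusted p = 0.0141), a call lost without MB131 activated replicate 2 (-0.16, edgeR adjusted p = 0.0619) or RNAi activated replicate 3 (-0.16, edgeR adjusted p = 0.0566). tim and Pdp1 were lower with RNAi in naive flies and higher with RNAi in activated flies of this line.

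Between the lines, 60.5% of all genes were called among naive flies, 31.6% lower and 29% higher in MB477. Of the clock genes, naive MB477 was below naive MB131 in 6 and above it in none. vri differed most, with 63.7, 58.3 and 60.4 CPM in MB477 and 216, 228 and 235 CPM in MB131 (-1.90 ± 0.06, 0.269-fold; edgeR adjusted p = 1.36e-48). The others were per at -0.63 ± 0.07, Clk at -0.57 ± 0.05, cwo at -0.53 ± 0.05, tim at -0.51 ± 0.04 and cry at -0.17 ± 0.05. Among activated flies, 2 were called, against 29.3%, with tim higher by 0.25 ± 0.04 and per lower by -0.30 ± 0.07 in MB477. Among naive flies with RNAi, 3 were called, against 22.8%, with tim higher by 0.17 ± 0.04, per higher by 0.34 ± 0.07 and Clk lower by -0.23 ± 0.05 in MB477. With RNAi the vri means of the naive groups were 208.8 ± 8.83 CPM in MB477 and 195.0 ± 11.4 CPM in MB131 (SD, n = 3), and they overlapped.

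Among activated flies with RNAi, 5 clock genes were called between the lines, 2 higher and 3 lower in MB477, against 32.2% of all genes. Clk was lower by -0.23 ± 0.05 (edgeR adjusted p = 0.000228). The other 4 calls did not survive the loss of single libraries. The call on per, at -0.23 ± 0.07, was lost without MB477 RNAi activated replicate 2 (-0.17, edgeR adjusted p = 0.0971). Pdp1, at -0.13 ± 0.04, was lost without MB477 RNAi activated replicate 1 (-0.08, edgeR adjusted p = 0.202) or 2 (-0.10, edgeR adjusted p = 0.0997) or MB131 RNAi activated replicate 3 (-0.10, edgeR adjusted p = 0.0908). cwo, at 0.14 ± 0.05, was lost without MB477 RNAi activated replicate 3 (0.10, edgeR adjusted p = 0.168) or MB131 RNAi activated replicate 1 or 3 (0.13 each, edgeR adjusted p of 0.0635 and 0.072). cry, at 0.14 ± 0.05, was lost without MB477 RNAi activated replicate 1 or 3 (0.10 and 0.12, edgeR adjusted p of 0.184 and 0.107) or MB131 RNAi activated replicate 2 or 3 (0.13 each, edgeR adjusted p of 0.0719 and 0.0796). Without any of the 3 MB477 libraries, or without replicate 3 of MB131, 3 of 8 clock genes were called.

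Against flies without CsChrimson, naive MB477 had 6 clock genes called, 1 higher and 5 lower, against 61% of all genes. vri was at 0.16-fold (-2.64 ± 0.06, edgeR adjusted p = 5.05e-61) and tim at 0.358-fold (-1.48 ± 0.04, edgeR adjusted p = 2.19e-53), with per lower by -0.86 ± 0.07, cwo by -0.70 ± 0.05 and Pdp1 by -0.66 ± 0.04, and cry higher by 0.35 ± 0.05. Naive MB131 had 7 called, 2 higher and 5 lower, against 13.7% of all genes. tim was at 1032, 1089 and 1121 CPM in naive MB131 and 2296, 1959 and 2108 CPM in naive flies without CsChrimson (-0.97 ± 0.04, edgeR adjusted p = 3.12e-38). vri was lower by -0.74 ± 0.05 and Pdp1 by -0.70 ± 0.04, and Clk was higher by 0.60 ± 0.05 and cry by 0.52 ± 0.05. per (-0.22 ± 0.07) was lost without MB131 naive replicate 2 (-0.19, edgeR adjusted p = 0.0816) or naive replicate 1 of the flies without CsChrimson (-0.16, edgeR adjusted p = 0.16). cwo (-0.17 ± 0.05) was lost without MB131 naive replicate 1 or 2 (-0.13 and -0.15, edgeR adjusted p of 0.0861 and 0.0521) or naive replicate 1 of the flies without CsChrimson (-0.12, edgeR adjusted p = 0.131).

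Among activated flies the differences of tim, vri, Pdp1 and cry from flies without CsChrimson were smaller in size than among naive flies. For cwo in MB131 the difference was larger among activated than among naive flies. For per in MB131 it was of like size with the other sign. In MB477, 3 clock genes were called, 2 higher and 1 lower, against 40.2% of all genes. cwo was lower by -0.25 ± 0.05 and cry higher by 0.22 ± 0.05, while vri (0.17 ± 0.06) was lost without MB477 activated replicate 3 (0.13, edgeR adjusted p = 0.118) or activated replicate 2 of the flies without CsChrimson (0.13, edgeR adjusted p = 0.127). In MB131, 5 were called, 3 higher and 2 lower, against 19.1% of all genes. cwo was lower by -0.33 ± 0.05, tim lower by -0.22 ± 0.04 and vri higher by 0.31 ± 0.06. per (0.21 ± 0.07) was lost without MB131 activated replicate 1 (0.18, edgeR adjusted p = 0.124) or 3 (0.21, edgeR adjusted p = 0.0545) or activated replicate 2 (0.18, edgeR adjusted p = 0.118) or 3 (0.20, edgeR adjusted p = 0.0713) of the flies without CsChrimson. cry (0.14 ± 0.05) was lost without MB131 activated replicate 2 or 3 (0.13 and 0.14, edgeR adjusted p of 0.115 and 0.0831) or activated replicate 1 or 3 of the flies without CsChrimson (0.11 and 0.14, edgeR adjusted p of 0.198 and 0.0785). Without replicate 3 of either activated group, 3 of 8 clock genes were called. These comparisons share the libraries without CsChrimson.

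Dusk and dawn genes are known to peak at opposite times, and a ratio of their counts within a library needs no scaling between libraries. Whether such a ratio follows the phase of the clock in these mixed tissues was not tested. The log2 ratio of tim to cry counts averaged 2.05 in activated and 3.96 in naive libraries without CsChrimson, 1.68 and 2.47 in MB131, 2.13 and 1.94 in MB131 with RNAi, 1.85 and 2.13 in MB477, and 2.02 and 2.11 in MB477 with RNAi. The naive libraries without CsChrimson, at 3.89 to 4.08, lay above all others. The log2 ratio of vri to Clk counts averaged -1.54 in activated and 0.93 in naive libraries without CsChrimson, -1.13 and -0.42 in MB131, -1.11 and -0.73 in MB131 with RNAi, -1.26 and -1.75 in MB477, and -0.76 and -0.39 in MB477 with RNAi. Naive MB477 had the lowest vri to Clk ratio, although its tim to cry ratio lay among those of the other groups. Its vri to cry ratio was also the lowest, with a mean of -1.51. In contrast, its mean log2 ratios of tim and Pdp1 to Clk were 1.89 and 3.16. Only the naive libraries without CsChrimson had higher means, at 3.41 and 3.86. The ratios are relative, and with no hour of collection in the labels they could not be placed on a time of day.

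**Figure D4:**
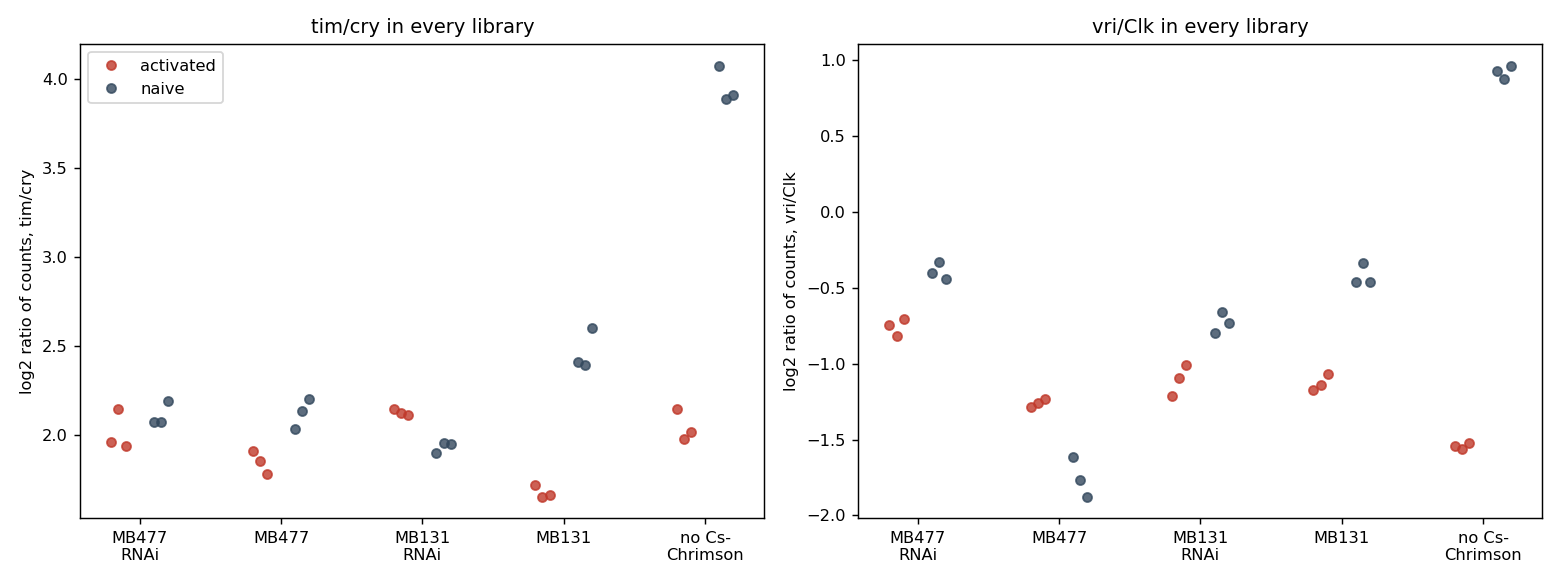
Log2 ratio of tim to cry counts and of vri to Clk counts in each library, by genotype, activated left and naive right. The naive libraries without CsChrimson lie highest in both panels, with means of 3.96 and 0.93, and the naive MB477 libraries lie lowest in the panel of vri to Clk, with a mean of -1.75.

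Over the 10 group means of log2 CPM, the genes of the same textbook phase varied together in some pairs. Pearson's r was 0.88 for tim with Pdp1, 0.86 for per with vri, 0.83 for vri with cwo and 0.77 for cry with Clk. The other pairs among tim, per, vri, Pdp1 and cwo ran from 0.46 for per with Pdp1 to 0.75 for tim with cwo. With these genes cyc, which is known to stay roughly level, had r from 0.35 for cwo to 0.60 for per. With cry and Clk, r of cyc was -0.78 and -0.67, so negative r with them was not limited to dusk genes. Between phases r was -0.80 for tim with cry, -0.81 for Pdp1 with cry and -0.56 for tim with Clk, but -0.04 for vri with Clk. These are descriptions over 10 points that share libraries, scaling and the 2 groups farthest from the others.

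The 5 genes with the highest likeness to tim over the 10 group means, of which tim had 2121 CPM in the naive libraries without CsChrimson and at most 1081 CPM in the others, were CG30008 (r = 0.94), Ebp (0.93), EbpII (0.93), Sfp87B (0.93) and Acp53C14a (0.92), ranked by Pearson's r of log2 CPM over all genes tested. Ebp, which the deposited table names Peb and which encodes a protein of the male ejaculatory bulb, averaged 13.5 ± 6.65 CPM in naive libraries without CsChrimson and 0 CPM in the other 9 groups (SD, n = 3). EbpII was at 3.43 ± 1.96 CPM and Sfp87B, a seminal fluid protein gene, at 2.51 ± 0.906 CPM in those naive libraries, and both at 0 CPM in the other 9 groups. Acp53C14a averaged 1.33 ± 0.333 CPM there and at most 0.162 CPM in the others. CG30008 averaged 3.76 ± 1.92 CPM there and 1.13 to 1.62 CPM in the others. Ebp, EbpII, Sfp87B and Acp53C14a therefore passed the filter through the same group in which tim was highest. For these low genes r restates that single group and shows no shared change over the others. The part of male reproductive transcripts in the tim level of that group was not tested. The 5 genes most like Clk were frm (0.95, CG10625 in the deposited table), Liprin-gamma (0.91), CG32052 (0.89), Atx2 (0.88) and RunxA (0.87). Of these, frm and RunxA were low, with group means of 7.14 to 12.7 CPM and 1.18 to 3.83 CPM. Over the 30 libraries their r was 0.70 and 0.67, against 0.80 to 0.86 for the others.

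The kinases and phosphatases that set the stability of PER and TIM were followed as a list of 11 tested genes. In activated over naive libraries, 5 were higher and none lower without CsChrimson, with a median log2 fold change of 0.08 against 0.003 over all genes. Among them sgg, the GSK3 kinase that phosphorylates TIM, was higher by 0.34 ± 0.05 (edgeR adjusted p = 2.47e-09). In MB477, 4 were higher and 4 lower, with tws, a regulatory subunit of the PP2A phosphatase, higher by 1.03 ± 0.06 and nmo, the nemo kinase, lower by -1.13 ± 0.05. In MB477 with RNAi none was higher and 2 were lower, in MB131 with RNAi 4 and 0, and in MB131 5 and 1. Of all genes tested, 21% were called without CsChrimson, 28.7% in MB477 with RNAi, 59.5% in MB477, 26.8% in MB131 with RNAi and 24.5% in MB131, and the list counts are to be read against these shares. The list's median log2 fold change in those other 4 genotypes, in the same order, was 0.01, -0.11, 0.09 and 0.06, against -0.002 to 0.002 over all genes.

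Genes of light input and protein degradation numbered 12. Of these 3 were higher and 1 lower in activated libraries without CsChrimson, 3 and 1 in MB477 with RNAi, 6 and 2 in MB477, 3 and 2 in MB131 with RNAi, and 3 and 1 in MB131. The shares of all genes called were 21%, 28.7%, 59.5%, 26.8% and 24.5% in the same order, and the counts in MB477 with RNAi, MB477 and MB131 lay near them. The list's median log2 fold changes were 0.05, 0.05, 0.07, 0 and 0.12. SkpA, a subunit of the ubiquitin ligase complex, was higher in all 5 genotypes, by 0.25 ± 0.07 in MB477 to 0.43 ± 0.07 without CsChrimson. qsm, a light-input gene, was lower in 4 genotypes, by -0.67 ± 0.06 in MB477 and -0.21 ± 0.06 without CsChrimson, and was not called in MB477 with RNAi (0.07 ± 0.06). ctrip, a ubiquitin ligase gene acting on CLK, was higher in MB477 by 1.45 ± 0.08 and lower in MB477 with RNAi by -0.33 ± 0.07. Of 10 other regulators of clock genes, 4 were higher and none lower without CsChrimson, 1 and 3 in MB477 with RNAi, 5 and 5 in MB477, 2 and 0 in MB131 with RNAi, and 2 and 2 in MB131, against the same shares of all genes. The count in MB131 with RNAi lay below its share of 26.8%, and the medians were 0.07, -0.10, 0.07, 0.09 and -0.03.

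Of the 12 genes for clock neuron peptides and the Pdf receptor, 8 were higher and 1 lower in activated libraries without CsChrimson, 1 and 1 in MB477 with RNAi, 5 and 2 in MB477, 8 and 1 in MB131 with RNAi, and 7 and 2 in MB131. Against the 21%, 28.7%, 59.5%, 26.8% and 24.5% of all genes called, the count in MB477 lay near its share and that in MB477 with RNAi below it. The list's median log2 fold changes were 0.29, -0.06, 0.32, 0.33 and 0.35. Pdf, the main peptide of the small ventral lateral clock neurons, averaged 10.83 to 25.2 CPM over the 10 groups. It was higher in activated libraries by 0.56 ± 0.16 without CsChrimson (edgeR adjusted p = 0.00795), 0.53 ± 0.18 in MB477 with RNAi and 0.56 ± 0.16 in MB131 with RNAi, and not called in MB477 (0.26 ± 0.16) or MB131 (0.36 ± 0.16). Dh44, a peptide of the output pathway of the clock, was higher by 0.54 ± 0.08 without CsChrimson, 1.39 ± 0.09 in MB477, 0.42 ± 0.08 in MB131 with RNAi and 0.64 ± 0.08 in MB131, and not called in MB477 with RNAi (-0.12 ± 0.08).

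Clock output genes, 10 of them, did not share a direction. In activated libraries 5 were higher and 1 lower without CsChrimson, 0 and 6 in MB477 with RNAi, 4 and 6 in MB477, 3 and 4 in MB131 with RNAi, and 3 and 3 in MB131, against 21%, 28.7%, 59.5%, 26.8% and 24.5% of all genes called. The list's median log2 fold changes were 0.12, -0.19, -0.17, -0.04 and 0.03. Cyp4d21, a cytochrome P450 gene also called sxe1, was lower in all 5 genotypes, by -0.90 ± 0.05 without CsChrimson, -1.09 ± 0.05 in MB477 with RNAi, -0.40 ± 0.05 in MB477, -0.64 ± 0.05 in MB131 with RNAi and -0.82 ± 0.05 in MB131. to (takeout), a carrier-like protein gene expressed in the head fat body, was higher with RNAi than without it in all 4 such comparisons. Its means were 248.7 ± 2.43 CPM with RNAi and 116.3 ± 2.1 CPM without in activated MB477, 228.8 ± 7.87 and 97.7 ± 1.66 CPM in naive MB477, 192.7 ± 9.66 and 119.9 ± 0.762 CPM in activated MB131, and 125.9 ± 8.82 and 79.94 ± 6.1 CPM in naive MB131 (SD, n = 3). In the same order, 21.9%, 61.1%, 11.5% and 11% of all genes were called for RNAi. This gene is 1 example, and the rest of the list is not given for RNAi.

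Other tissues and stress genes moved beside these results. Their counts stand against the shares of all genes called, 21% without CsChrimson, 28.7% in MB477 with RNAi, 59.5% in MB477, 26.8% in MB131 with RNAi and 24.5% in MB131. All 16 photoreceptor markers were higher in activated libraries without CsChrimson, in MB131 with RNAi and in MB131, 13 were higher and 2 lower in MB477, and 10 were higher and none lower in MB477 with RNAi. Their summed level was 28540 to 29040 CPM in activated and 16900 to 17330 CPM in naive libraries without CsChrimson, and 25210 to 25330 CPM in activated and 13100 to 13280 CPM in naive MB477 libraries. All 15 tested heat shock genes were higher in 4 genotypes and 14 in MB477 with RNAi, with sums of 7117 to 7200 CPM activated and 955.1 to 996.5 CPM naive without CsChrimson. Glial markers, 8 in all, gave 2 higher and 3 lower without CsChrimson, 1 and 5 in MB477 with RNAi, 6 and 1 in MB477, 1 and 5 in MB131 with RNAi, and 1 and 4 in MB131, with the same shares over all genes. They summed to 2280 to 2383 CPM activated and 2548 to 2575 CPM naive without CsChrimson, and to 2720 to 2831 and 2278 to 2398 CPM in MB477. Fat body markers, 6 tested, were all higher in 4 genotypes, and without CsChrimson 1 was higher and 2 lower. Their sum was 12730 to 14790 CPM activated and 13620 to 16670 CPM naive without CsChrimson, and 44090 to 45960 and 21780 to 22360 CPM in MB477. Among these markers, Yp1 to Yp3 encode yolk proteins of females, and the labels give no sex. In MB131 the log2 fold changes were 0.97 for Yp1, 0.99 for Yp2, 0.99 for Yp3 and 1.33 for Lsp2. For apolpp and Cat they were smaller, at 0.35 and 0.17. Whether the share of females differed between groups was not tested, so a higher sum is not read as more fat body.

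Of 11 tested muscle markers, none was higher and 9 lower without CsChrimson, 10 and 0 in MB477 with RNAi, 1 and 8 in MB477, 0 and 11 in MB131 with RNAi, and 0 and 9 in MB131, against 21%, 28.7%, 59.5%, 26.8% and 24.5% of all genes, with group means of their sum between 2815 and 8680 CPM. Kenyon cell markers, 13 genes of the mushroom body's own neurons, gave 7 higher and 2 lower without CsChrimson, 1 and 10 in MB477 with RNAi, 9 and 4 in MB477, 2 and 3 in MB131 with RNAi, and 0 and 9 in MB131, against the same shares. Their sum was 5302 to 5536 CPM activated and 4663 to 5334 CPM naive without CsChrimson, and 3190 to 3351 and 3104 to 3159 CPM in MB477, the lowest of any genotype. No tested marker of these tissues was at 0 in any group. The part of these shifts in the clock gene results was not tested.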

How the data were processed

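Per the labels' protocols, FLAG-tagged nuclei from heads gave oligo-dT selected RNA-seq libraries. The deposited table holds whole-number read counts per gene, made with STAR, the dm6 genome and HTSeq, per the submitters' processing notes, which give no versions. Strand use and the handling of multi-mapping reads were not given in the sources used here. A deposited table of the authors' own comparisons was not used here.

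Groups came from sample titles. The unaltered counts went into edgeR 4.0.16 under R 4.3.3. filterByExpr (minimum count 10, minimum total 15) kept 11457 genes, TMM factors scaled the libraries, and all 30 libraries entered a single robust quasi-likelihood model with a mean per group, with a common biological coefficient of variation of 6.32%. The 21 comparisons (17 of a pair of groups and 4 interactions) were tested two-sided, p-values were adjusted by Benjamini-Hochberg across the 11457 genes, and 0.05 was the threshold. SE is the absolute log2 fold change divided by the square root of F, and 95% intervals follow from it by the normal distribution. CPM use TMM factors, and log2 CPM a prior count of 2. The procedure was tested on simulated data.

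The members and the lists of other genes were chosen with earlier results of these data known. The text names all 8 members, the 5 genes with the highest r to tim and to Clk, and examples from each list. Every gene of the lists was found by its current or deposited name except FASN1; TpnC4 and Hsp22 did not pass the filter. Positions and exons are Ensembl's for BDGP6, the assembly also called dm6. Same-numbered replicates did not deviate together (r of -0.048 to 0.055), so they were not paired. Alternatives were relative log expression factors, library totals alone, no filter, no robust estimation, the replicate number as a block, the groups of a comparison alone, DESeq2 1.42.0, a fit without naive MB477, and leaving out each library in turn.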

Additional observations from a re-analysis of the deposited data

Results flagged for a closer look

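The values here are differences between log2 fold changes of activation in a pair of genotypes, each passing edgeR's quasi-likelihood test of the difference itself after adjustment over all genes tested. In MB477 with Kdm4B RNAi against MB477, the difference was -1.37 for vri (edgeR adjusted p = 1.93e-27), -0.51 for Clk (5.96e-09), 0.39 for Pdp1 (8.57e-09), -0.43 for per (0.000179), -0.30 for cry (0.000187) and -0.17 for cwo (0.0306). In MB131 with RNAi against MB131 it was 0.78 for tim (edgeR adjusted p = 9.72e-20), 0.40 for Pdp1 (7.89e-08), 0.47 for per (0.000226) and 0.36 for vri (0.00055).

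In MB477 against flies without CsChrimson it was 2.81 for vri (edgeR adjusted p = 2.38e-50), 1.51 for tim (5.71e-41), 0.69 for Pdp1 (8.32e-19), 0.76 for per (1.92e-10) and 0.45 for cwo (3.44e-08). In MB131 against flies without CsChrimson it was 1.05 for vri (edgeR adjusted p = 1.57e-20), 0.75 for tim (1.78e-19), 0.71 for Pdp1 (4.77e-18), -0.71 for Clk (1.31e-12), -0.38 for cry (6.08e-05) and 0.43 for per (0.00117). The vri differences that involve MB477 rest on the naive MB477 libraries, which stood apart from the other 27. That against flies without CsChrimson rests also on the naive libraries of those flies. Mean vri was 379.0 CPM there and 60.82 CPM in naive MB477, against 112.2 and 126.0 CPM in the activated groups. All differences against flies without CsChrimson use these naive libraries, in which tim and Pdp1 were also highest.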

How the results depend on the processing

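None of the 168 log2 fold changes of single clock genes changed sign while called. The call was the same for 167 with DESeq2, 166 with relative log expression factors, 154 with library totals alone, 164 without the filter, 168 without robust estimation, 158 in fits of a comparison's groups alone, 119 of 120 without naive MB477, and 1137 of 1200 values with a library left out. With the replicate number as a block all 168 calls were the same, for example 8 clock genes called without CsChrimson, although the numbers do not pair the samples: own numbers correlated best in 0 to 5 of 6 libraries. With library totals alone, 3 clock genes were called between activated MB477 and MB131 with RNAi (5 as reported), 5 between the naive ones (3 as reported), and 3 between activated MB131 and flies without CsChrimson (5 as reported). In fits of the groups alone it was 5 between naive MB477 and MB131 with RNAi, and 6 for RNAi in activated MB131 (3 as reported). With single libraries left out, counts were 3 to 4 between activated lines with RNAi, 3 to 4 between activated MB131 and flies without CsChrimson, and 1 to 4 for RNAi in activated MB477 (3 as reported). Library totals alone lost the calls on cry for activation in MB477 with RNAi, and on cry and cwo between activated lines with RNAi. They also lost those on cry and per between activated MB131 and flies without CsChrimson, and on vri between activated MB477 and those flies. Fits of the groups alone lost those on cyc for activation in MB131 and on cwo between naive MB131 and flies without CsChrimson. The causes were not tested.

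Some uncalled values passed with 1 library left out: Clk in the response of MB477 against flies without CsChrimson (-0.18 to -0.21, without MB477 naive replicate 1, or activated replicate 2 or naive replicate 1 of the flies without CsChrimson); Clk between those activated groups (-0.14 and -0.15, without MB477 replicate 3 or replicate 2 of the others); tim in the response with RNAi against that without in MB477 (-0.15 to -0.18, without MB477 naive replicate 3 or RNAi activated replicate 1 or 2); cry in that of MB131 (-0.25, without MB131 naive replicate 2); cry and Pdp1 for RNAi in activated MB477 (-0.15 and 0.13, without RNAi replicate 1); and vri between activated lines without RNAi (-0.18, without MB477 replicate 3) and with it (0.17, without MB131 replicate 3).

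Library totals alone put 38.4% of calls on the higher side for activation in MB131 against 52% with TMM, 36.3% against 51.6% in MB131 with RNAi, 33.5% against 54.4% in MB477 with RNAi, 42.3% against 52.6% without CsChrimson, and 39.4% against 50.2% for activated MB477 over flies without CsChrimson. Over the 10 group means and over the 30 libraries, 3 of the 5 genes most like tim and 2 of those most like Clk were shared. At this depth and spread, changes of up to about 0.2 on the log2 scale were not always called: per at 0.18 (edgeR adjusted p = 0.0704) and vri at 0.15 (0.076) for RNAi in activated MB131, and cry at -0.20 (0.076) in the RNAi interaction of that line, missed the threshold.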
